A study of Mus musculus with 20 samples.

Results

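Bone marrow cells sorted as Lin-cKit+Sca1+ (LSK), the fraction that holds blood stem cells and multipotent progenitors, were compared between mice with the R172K change in Idh2 and wild-type (WT) mice. The comparison used the 4 Idh2R172K and the 4 WT libraries of an RNA-seq series of 20 libraries. It took every gene whose mean over those 8 libraries was at least 1 TPM, a level corrected for gene length that sums to the same total in every library. This kept 14028 of the 46078 genes in the table, with means of 1.0004 TPM just inside and 0.999 TPM just outside the limit, and the genes kept held 99.7 to 99.8% of each library's TPM. All mice were C57Bl/6J and 3 to 4 months old, and each library was made from a pool of 2 mice. WT mice were +/+;Vav-Cre and the mutants Idh2LSL-R172K/+;Vav-Cre, so both groups carried the recombinase, which the Vav promoter drives in blood-forming cells, and the mutant allele was heterozygous and switched on by Cre. The labels tie no library to other libraries, so p-values measure the spread between pools. Further groups used below were Idh2LSL-R140Q/+;Vav-Cre (Idh2R140Q) and Tet2-/- (Tet2KO), whose label names no Cre. The spread of each gene was estimated over all 20 libraries, which include 4 of Idh1LSL-R132H/+;Vav-Cre.

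IDH2 is the mitochondrial isocitrate dehydrogenase that makes 2-oxoglutarate with NADP as the cofactor. The R172K and R140Q changes, found in acute myeloid leukaemia, give the enzyme a new activity that turns 2-oxoglutarate into 2-hydroxyglutarate. That metabolite inhibits dioxygenases that need 2-oxoglutarate, among them the TET enzymes that oxidise methylated cytosine and the JmjC histone demethylases. Loss of TET2 and mutation of IDH2 are both linked to a block in blood cell maturation.

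The 8 libraries held about 37000000 to 43100000 assigned reads, as rebuilt from the TPM. The first principal component, with 40.1% of the variance, placed all 4 mutant libraries on one side and all 4 WT libraries on the other. The second, with 22.4%, set the pools numbered 4 of both groups apart from the rest. In those pools the rRNA-like gene Gm23935 took 8.03% (WT) and 8.13% (Idh2R172K) of TPM, against 11 to 13.5% in the other 6. Counts without such libraries stand beside the results below, and a fit with the Gm23935 share as a covariate called 2428 genes higher and 1785 lower in Idh2R172K. Each group had 2 pools with Xist, the RNA of the inactive X chromosome, and 2 with the Y-linked Ddx3y, in the same pool numbers.

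**Figure D1:**
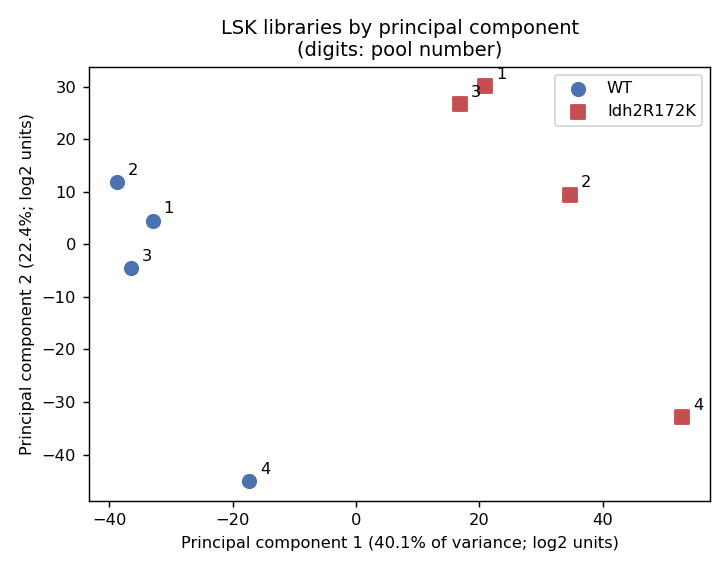
First against second principal component of log2(TPM + 1) over the 14028 genes tested (axes in log2 units), one point per library with its pool number. WT lies between -38.7 and -17.3 and Idh2R172K between 16.8 and 52.9 on the first component, and the number 4 pools lie at -45.1 (WT) and -33.0 (Idh2R172K) on the second.

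The promoters shown here belong to genes whose levels are given further on. They are the 250 bases before the RefSeq start of each gene on GRCm38.p6, read 5′ to 3′ along the gene. The first 3 belong to red cell genes that were lower in the mutant. Their capitals mark AGATAA, a letter string bound by GATA factors, on either strand (as TTATCT on the other). The last pair belongs to a gene nearly lost and a gene strongly raised, with every CG in capitals.
Rhd, chr4:134864286-134864535, plus strand: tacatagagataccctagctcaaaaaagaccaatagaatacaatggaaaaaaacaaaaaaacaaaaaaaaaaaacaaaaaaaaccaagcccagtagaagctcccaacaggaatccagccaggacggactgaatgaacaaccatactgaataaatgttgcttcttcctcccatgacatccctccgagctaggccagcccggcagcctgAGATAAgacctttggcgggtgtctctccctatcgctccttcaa
Epor, chr9:21963577-21963826, minus strand: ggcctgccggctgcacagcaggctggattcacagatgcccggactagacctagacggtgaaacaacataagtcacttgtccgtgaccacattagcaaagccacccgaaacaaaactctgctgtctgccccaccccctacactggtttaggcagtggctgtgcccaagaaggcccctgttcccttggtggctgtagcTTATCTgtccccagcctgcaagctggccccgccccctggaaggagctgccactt
Ces2g, chr8:104961468-104961717, plus strand: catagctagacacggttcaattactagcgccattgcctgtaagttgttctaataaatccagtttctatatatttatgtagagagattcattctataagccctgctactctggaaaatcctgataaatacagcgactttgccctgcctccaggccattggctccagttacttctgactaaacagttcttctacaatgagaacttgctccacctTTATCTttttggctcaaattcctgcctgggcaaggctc
Padi4, chr4:140774204-140774453, minus strand: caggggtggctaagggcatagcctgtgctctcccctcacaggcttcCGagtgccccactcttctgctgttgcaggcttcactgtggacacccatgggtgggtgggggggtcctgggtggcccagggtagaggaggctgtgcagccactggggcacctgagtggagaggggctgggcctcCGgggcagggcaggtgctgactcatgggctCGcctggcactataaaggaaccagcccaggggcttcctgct
Smagp, chr15:100636941-100637190, minus strand: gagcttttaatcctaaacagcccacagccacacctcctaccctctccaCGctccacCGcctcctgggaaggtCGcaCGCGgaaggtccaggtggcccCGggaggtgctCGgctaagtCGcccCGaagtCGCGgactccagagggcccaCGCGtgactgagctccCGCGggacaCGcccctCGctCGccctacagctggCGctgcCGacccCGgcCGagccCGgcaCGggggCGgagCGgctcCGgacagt

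Idh2 itself (ENSMUSG00000030541, chr7:80094846-80115392, mm10) came first. It was at 469.7, 485, 516 and 647 TPM in the WT libraries and at 896, 887, 940.4 and 1024 TPM in the Idh2R172K libraries. Every mutant library lay above every WT library, and the log2 difference was 0.83 ± 0.11 (SE, n = 4 against 4, limma adjusted p = 2.3e-05). In Idh2R140Q, an allele of the same gene built on the same plan, Idh2 was at 496, 474, 554 and 621 TPM. The difference between the mutants was 0.81 ± 0.11 (limma adjusted p = 3.9e-05). TPM summed over the gene does not tell the mutant from the normal copy. The cytosolic enzyme gene Idh1 was at 88.8 ± 12.2 TPM (mean ± SD, n = 4) in WT and 81.7 ± 7.58 TPM in Idh2R172K, and the libraries overlapped (limma adjusted p = 0.69).

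Some genes next to Idh2 were higher too. Within 200 kb on either side 11 genes were tested, of which 4 were called higher, 1 lower and 6 were not called, while 15.8% of all genes tested were called. Of the 4 higher genes, Arpin and 5430400D12Rik averaged under 1 TPM in WT and passed the limit of 1 TPM through the mutant libraries, so the count is a description of the region only. Zfp710, a zinc finger gene that ends 0.673 kb from Idh2 (chr7:80024814-80094173), was at 19, 14.6, 23.3 and 23.2 TPM in WT and at 41.7, 59.1, 47.6 and 80.5 TPM in Idh2R172K. The groups did not overlap, and the log2 difference of 1.45 ± 0.21 (limma adjusted p = 7.6e-05) was larger than that of Idh2. Its level in Idh2R140Q was 27.6 ± 7.44 TPM, below Idh2R172K (limma adjusted p = 0.0028). Arpin, whose protein inhibits the Arp2/3 complex of actin branching, was at 0.966, 0.704, 0.591 and 0.964 TPM in WT and 2.3, 1.62, 1.76 and 2.72 TPM in the mutant, again without overlap, with a log2 difference of 0.77 ± 0.16 (limma adjusted p = 0.0018). The noncoding model 5430400D12Rik beside Arpin also rose (0.68 ± 0.16, limma adjusted p = 0.0067). Sema4b, a semaphorin on the other side of Idh2, rose by 0.56 ± 0.16 (limma adjusted p = 0.024), a call that ended without WT replicate 2 or Idh2R172K replicates 2 or 4 (0.073 to 0.092). Cib1, a calcium-binding protein of platelets and other cells, was the 1 gene lower, at -0.25 ± 0.08 (limma adjusted p = 0.036), and that call ended without WT replicates 1, 2, 3 or 4 or Idh2R172K replicates 2, 3 or 4 (0.06 to 0.097). Farther out, at 946 kb, Mfge8, which codes for a bridging protein in the uptake of dying cells, rose from 212 ± 17.9 to 332 ± 14.2 TPM (0.65 ± 0.11, limma adjusted p = 0.00053). Leaving out Idh2, the share called was 45.5% within 200 kb. It was 20.6% of 34 genes within 1000 kb and 13.8% of 65 within 5000 kb, against 15.8% of all genes.

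**Figure D2:**
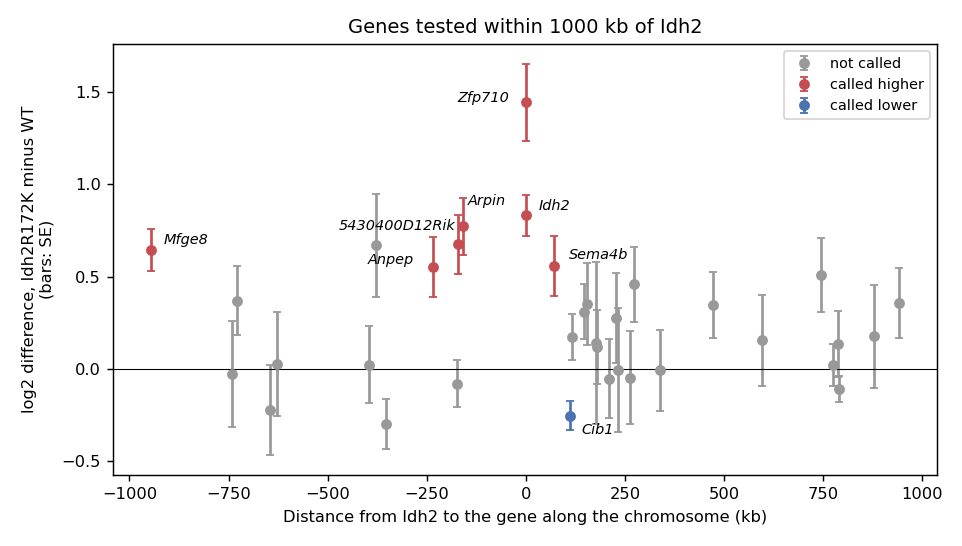
log2 difference between Idh2R172K and WT (vertical axis, with SE) of each gene tested within 1000 kb of Idh2, by its distance from Idh2 in kb (horizontal axis). Zfp710 at 1.45, Idh2 at 0.83 and Arpin at 0.77 lie highest among the called genes, and Cib1 at -0.25 is the only one called lower.

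Of the 14028 genes, 2217 were called at an adjusted p under 0.05, 15.8% of those tested. The calls divided into 1206 higher in Idh2R172K (8.6% of genes tested) and 1011 lower (7.21%). In 3240 genes, 23.1% of those tested, the 4 libraries of one group lay wholly above the 4 of the other. That held for 1062 of the genes called higher and 945 of those called lower. Falls were larger than rises. At least a 2-fold difference on this scale was seen in 403 genes called lower and 276 called higher, and at least an 8-fold one in 22 and 9. Of the 2217 calls, 1363 held whichever of the 8 libraries was left out (628 higher and 735 lower). The rises depended most on single libraries, with 801 without mutant pool 2 and 778 without mutant pool 4. Leaving out the 5 libraries that stood apart, the number 4 pools of WT and the Idh groups and Tet2KO replicate 2, gave 3201 genes higher and 1462 lower.

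The direction of the balance depended on the scaling. Over all genes tested the median log2 difference was 0.11, and 0.02 when libraries were scaled by median-of-ratios size factors. The genes called higher were 54.4% of all calls with TPM as deposited, 45.6% with median-of-ratios scaling and 45.5% with quantile scaling. With library weights they were 65.6%, and 68.6% without the 5 libraries. The differences below are on the log2(TPM + 1) scale of the deposited TPM, which understates the change of genes near 1 TPM. A gene under 1 TPM in 1 group can pass the limit through the other group, so counts of list members below are descriptions only. In bulk RNA of sorted cells, fewer cells of a type and less RNA per cell cannot be told apart.

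**Figure D3:**
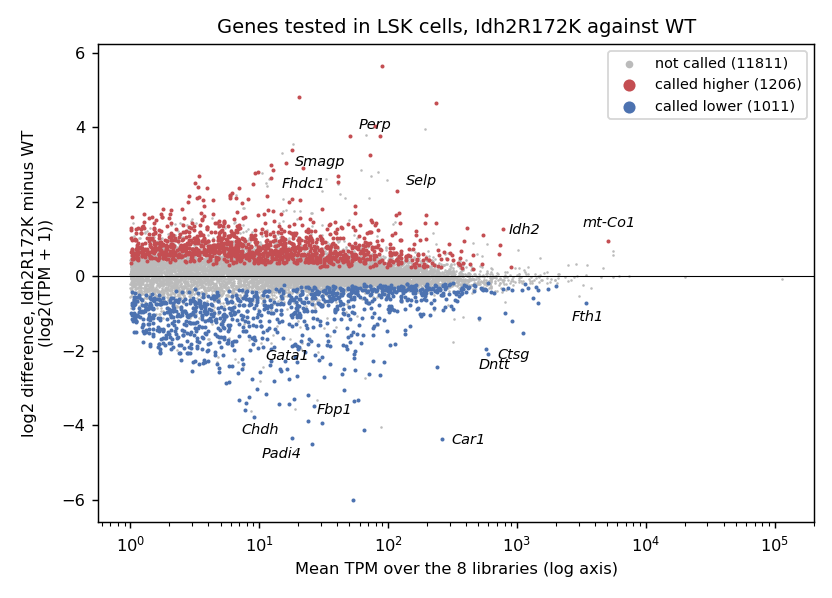
log2 difference between Idh2R172K and WT (vertical axis) against the mean TPM of the 8 libraries (horizontal log axis) for the 14028 genes tested, with the 1206 called higher in red and the 1011 called lower in blue. Padi4, Car1 and Chdh lie at -4.50, -4.36 and -4.33, Perp at 3.77 and Smagp at 3.04; the unlabelled genes beyond 4 on either side are immunoglobulin V segments.

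The largest rises, leaving out immunoglobulin segments, small RNAs and unnamed models, had WT means from 0.196 TPM (Spats2) to 40.5 TPM (Selp). Perp, a tetraspan membrane protein of desmosomes and a target of p53 (chr10:18845020-18857073), was at 6.86, 6.12, 5.55 and 5.58 TPM in WT and at 84.1, 102, 106 and 87.8 TPM in Idh2R172K. All mutant libraries lay far above all WT libraries, with a log2 difference of 3.77 ± 0.17 (limma adjusted p = 5.4e-11). Smagp, a small adhesion glycoprotein of epithelia (chr15:100621339-100636940), stood at 2.28, 2.32, 3.01 and 3.2 TPM in WT and 23.4, 31.3, 33.8 and 29.9 TPM in the mutant. It was low in all WT libraries and high in all mutant ones (3.04 ± 0.15, limma adjusted p = 1.3e-10). Cd200r4, a receptor of the CD200 receptor family that has close relatives in the genome, was at 1.08, 2.52, 2.05 and 2.37 and 27.1, 18.8, 19.7 and 24.1 TPM, with no overlap (2.98 ± 0.17, limma adjusted p = 7.2e-10). Spats2, named for its expression in spermatogenesis, was at 0.425, 0.159, 0.171 and 0.0298 TPM in WT and 6.2, 7.15, 6.07 and 7.19 TPM in the mutant (2.68 ± 0.13, limma adjusted p = 1.3e-10). Gpc3, a glypican that binds growth factors at the cell surface, went from 11.6, 8.68, 12.9 and 11.8 TPM to 58.7, 83.1, 80.4 and 58.3 TPM. Its lowest mutant library was several times its highest WT library (2.53 ± 0.22, limma adjusted p = 1.6e-07). The other rises among the 15 largest were in Fhdc1 (2.86), a formin, Tmem215 (2.63), Mpzl2 (2.51), an adhesion protein, Gfra1 (2.46), the GDNF receptor, Zfp711 (2.39), Selp (2.29), Scube3 (2.24), Vash2 (2.14), Fam181b (2.14) and Igll1, described with the lymphoid genes. All 15 kept their calls in every setting tried.

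The largest falls, by the same rule, had means in Idh2R172K from 0.382 TPM (Nr0b2) to 25.1 TPM (Car1). Padi4, the deiminase that turns arginine of histones into citrulline (chr4:140745865-140774236), was at 51.6, 44.6, 51 and 53.2 TPM in WT and 0.949, 1.66, 1.05 and 1.42 TPM in Idh2R172K. Even the highest mutant library was far under the lowest WT library (-4.50 ± 0.17, limma adjusted p = 7.5e-12). Chdh, the mitochondrial choline dehydrogenase of betaine synthesis, was at 25.9, 26.8, 32.6 and 55.2 TPM and 0.379, 1.03, 0.693 and 0.803 TPM (-4.33 ± 0.31, limma adjusted p = 1.3e-08). Fbp1, the fructose bisphosphatase of gluconeogenesis, was at 39.3, 51.3, 39.7 and 50.8 TPM and 2.48, 2.41, 1.25 and 2.46 TPM (-3.89 ± 0.17, limma adjusted p = 2.9e-11). Nr0b2, an orphan nuclear receptor that represses transcription, was at 18.8, 19.3, 18.4 and 15.4 TPM and 0.579, 0.362, 0.29 and 0.296 TPM (-3.78 ± 0.13, limma adjusted p = 1.1e-12). In none of these 4 genes did the groups come near each other. Tbxa2r, the thromboxane receptor, fell from 99 ± 20.1 to 8.63 ± 1.18 TPM (-3.36 ± 0.15, limma adjusted p = 5.4e-11). Ly9, a receptor of the SLAM family, fell from 31.9 ± 13.4 to 1.91 ± 0.405 TPM (-3.43 ± 0.24, limma adjusted p = 1.3e-08). The 15 largest also held Car1, Ccl3, Psma8, Ces2g and Gdf3, which are described with their groups, Prg2, Lipo3 (-3.41), Prss50 (-3.34) and Rps4l (-3.18). Rps4l is annotated as a processed pseudogene of a ribosomal protein, so its reads may come in part from near-identical copies. All 15 kept their calls in every setting tried.

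Among the most abundant RNAs the changes were smaller. The mitochondrially encoded mt-Co1, a subunit of cytochrome c oxidase, was at 3799, 4079.7, 3322 and 2644 TPM in WT and 7312, 7082, 6692 and 5330.4 TPM in Idh2R172K. The mutant libraries lay above the WT libraries (0.94 ± 0.15, limma adjusted p = 0.00019). It was the only 1 of 10 mitochondrial transcripts on the list that was called, and the list's median was 0.07. All mitochondrial transcripts together took 1.33 to 2.31% of TPM in WT and 1.90 to 2.79% in Idh2R172K, ranges that overlap. Serpina3g, a protease inhibitor in a cluster of similar genes, rose from 457 ± 70.1 to 1093 ± 71.2 TPM (1.27 ± 0.15, limma adjusted p = 5.5e-06). Tmem176b, a membrane protein of dendritic and other immune cells, rose from 579 ± 28 to 876 ± 49 TPM (0.60 ± 0.07, limma adjusted p = 3.6e-06). In the other direction Fth1, the heavy chain of the iron store ferritin, was at 4211, 4776, 4237 and 3917 TPM in WT and 2739, 2673, 2756 and 2219 TPM in the mutant, without overlap (-0.72 ± 0.09, limma adjusted p = 1.1e-05). Mif, a cytokine-like protein, fell from 1830.2 ± 266 to 1102 ± 149 TPM (-0.73 ± 0.15, limma adjusted p = 0.0017). In both groups the number 4 pool was the lowest for Mif.

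Red cell genes had the lowest median of the pathway and programme lists. Early erythroid cells switch on GATA1 and KLF1, which then drive genes of the red cell membrane, of carbon dioxide transport and of haem synthesis. Of 32 genes on the erythroid list tested, 19 were lower and 3 higher, and the median log2 difference was -1.07 against 0.11 over all genes. The share called was 68.8%, against 15.8% of all genes. Sphk1 and some others of the 19 averaged under 1 TPM in Idh2R172K and passed the limit of 1 TPM through WT. Without the 5 libraries that stood apart there were 20 lower and 5 higher. Gata1, the master transcription factor, was at 49.4, 41.4, 52.9 and 52.2 TPM in WT and 7.77, 9.86, 11.1 and 9.04 TPM in Idh2R172K. Its groups were widely separate (-2.26 ± 0.12, limma adjusted p = 5e-10). Klf1, its partner at erythroid genes, was at 54, 48.2, 63.2 and 57.2 TPM and 7.22, 6.9, 9.2 and 7.65 TPM, as widely separate (-2.70 ± 0.12, limma adjusted p = 2.9e-11). Other factors of the same network did not pass. Tal1 was at 18.8 ± 2.33 TPM in WT and 27.7 ± 7.4 TPM in the mutant (limma adjusted p = 0.056), Zfpm1, the GATA1 cofactor FOG1, at 7.09 ± 1.29 and 10.8 ± 4.03 TPM (adjusted p = 0.11), and Gfi1b at 118 ± 21.4 and 96.7 ± 25.3 TPM (adjusted p = 0.36).

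Several erythroid effector genes were lower in every mutant library than in any WT library. Car1, the carbonic anhydrase of early red cell precursors, was at 426, 502, 611 and 456 TPM in WT and 10.5, 35.7, 25.6 and 28.8 TPM in Idh2R172K. Mutant pool 1 was lowest, and no mutant library came near WT (-4.36 ± 0.25, limma adjusted p = 7.2e-10). Epor, the erythropoietin receptor whose promoter is shown above, was at 18.7, 20.9, 22.3 and 24 TPM and 8.56, 8.57, 8.38 and 9.44 TPM, with the mutant libraries close together and far under WT (-1.20 ± 0.13, limma adjusted p = 1.5e-06). Rhd, a blood group membrane protein, was at 27.2, 30.2, 40.8 and 24.1 TPM and 2.83, 3.45, 4.78 and 3.52 TPM (-2.75 ± 0.18, limma adjusted p = 5.9e-09). Ces2g, a carboxylesterase, was at 45.6, 48.6, 62.2 and 41.9 TPM and 2.73, 4.45, 4.33 and 2.73 TPM (-3.48 ± 0.21, limma adjusted p = 1.4e-09). Ermap, a blood group protein (-2.82), Sphk1, a sphingosine kinase (-2.83), Cldn13, a claudin of mouse red cells (-2.48), Rhag, the partner of Rhd in the membrane (-1.95), and Aqp1, the water channel (-1.78), fell as well. Car2, a second carbonic anhydrase that other blood cells also express, fell less, from 1069 ± 146 to 539 ± 42.2 TPM (-0.98 ± 0.13, limma adjusted p = 2.7e-05). The 3 genes higher were Cnrip1 (1.17 ± 0.17), Samd14 (0.83 ± 0.12), whose protein supports signalling of the KIT receptor, and Cd59a (0.76 ± 0.16), a complement inhibitor. The late products of red cells were low in both groups. The globin genes on the list were not called, with Hbb-bt at 32.9 ± 10.2 TPM in WT and 24.2 ± 6.85 TPM in the mutant (limma adjusted p = 0.28).

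A few haem and iron genes were lower as well. Of 27 tested, 5 were lower and 1 higher, 22.2% called against 15.8% of all genes. The median was -0.10 (10 lower and 3 higher without the 5 libraries, and 10 lower with median-of-ratios scaling). Alad, the second enzyme of haem synthesis, was at 152, 154, 158 and 150.0 TPM in WT and 82.9, 70.8, 89.9 and 77.3 TPM in Idh2R172K, without overlap (-0.93 ± 0.09, limma adjusted p = 3.6e-07). Alas1, the first enzyme in cells other than red cells, was at 102, 78.1, 108 and 122 TPM and 42.1, 52.2, 44.5 and 49.3 TPM, again apart (-1.09 ± 0.17, limma adjusted p = 0.00012). Urod, a later enzyme, was at -0.26 ± 0.07 (limma adjusted p = 0.02), a call that ended without WT replicates 1 or 4 or Idh2R172K replicates 2, 3 or 4 (0.05 to 0.062). Ncoa4, the receptor that brings ferritin to lysosomes for breakdown, was the 1 gene higher, from 101 ± 9.34 to 152 ± 8.39 TPM (0.59 ± 0.16, limma adjusted p = 0.017), while Fth1, given above, was lower.

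In the promoters, AGATAA was found within 250 bases before and 50 after the start in 6 of 23 erythroid genes with a RefSeq promoter (26.1%). They were Rhd, Epor, Ces2g, Icam4, Tal1 and Hemgn, of which the first 4 were called lower. The share was 6.51% of all 9531 genes tested that had a promoter, 13.4% of the 290 called lower at least 2-fold and 10.1% of the 148 called higher at least 2-fold. It was 11.2% of all 32851 promoters in the table, called genes or not. A second string, CCACACCC, which factors of the KLF1 family bind, was in 1 of the 23 (4.35%) and in 3.97% of the 9531. Neither string overlaps the other, both strands were searched, and a match is a description of letters only.

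Promoters of changed genes held fewer CG pairs. The observed over expected ratio of CG had a median of 0.79 among 7964 genes not called, 0.67 among 798 called higher and 0.60 among 769 called lower. With at least 2-fold changes it was 0.52 for the 148 genes higher and 0.39 for the 290 lower. A ratio of at least 0.6, the usual bound for CpG islands, was met by 76.2% of genes not called, 59.1% of those higher and 51% of those lower. Padi4 and Smagp, printed above, lie on opposite sides of that bound, at 0.25 and 0.81, and Padi4 fell while Smagp rose. The 23 erythroid genes had a median of 0.30. Methylation itself was not measured in these libraries.

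Genes of megakaryocytes, the precursors of platelets, changed in both directions. Of 28 tested, 9 were higher, 3 lower and 16 not called, and the median was 0.43 (12 and 3 without the 5 libraries). The calls made up 42.9% of those tested, against 15.8% of all genes. Selp, the adhesion receptor P-selectin of platelets and endothelium, was at 41.3, 26.7, 60.9 and 32.9 TPM in WT and 156, 204, 215 and 203 TPM in Idh2R172K, without overlap (2.29 ± 0.37, limma adjusted p = 0.00025). Itga2b, the integrin CD41, was at 94.7, 96.9, 90.9 and 133 TPM and 185, 221, 199 and 292 TPM, with the number 4 pool highest in each group (1.10 ± 0.26, limma adjusted p = 0.0061). Its partner chain Itgb3 rose by 1.01 ± 0.30 (limma adjusted p = 0.028), a call that ended without WT replicates 2 or 3 or Idh2R172K replicates 1, 2 or 4 (0.058 to 0.084). Rab27b, a small GTPase of platelet granule release, rose by 1.23 ± 0.18 (limma adjusted p = 7.4e-05).

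The 3 megakaryocyte genes that fell code for granule and membrane proteins. Pf4, platelet factor 4, was at 189.7, 157, 135 and 157 TPM in WT and 54.9, 74.4, 25.9 and 32.1 TPM in Idh2R172K. The mutant pools numbered 3 and 4 were lowest and none reached WT (-1.86 ± 0.28, limma adjusted p = 0.00012). Cavin2, a caveola protein, was at 13, 11.4, 14.4 and 16.1 TPM and 3.84, 6.88, 2.71 and 2.28 TPM (-1.65 ± 0.24, limma adjusted p = 7.6e-05). Vwf, von Willebrand factor, which also marks stem cells biased to platelets, was at 9.72, 7.42, 7.89 and 9.34 TPM and 2.57, 5.39, 1.96 and 1.91 TPM, with mutant pool 2 nearest to WT (-1.35 ± 0.28, limma adjusted p = 0.0027). All 3 kept their calls in every setting tried.

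Stem cell genes moved in both directions. Of 39 tested, 7 were higher and 4 lower, 28.2% called against 15.8% of all genes, with a median of 0.20 (13 and 4 without the 5 libraries). Tek, the angiopoietin receptor TIE2 of quiescent stem cells, was at 21.7, 15, 18 and 21.3 TPM in WT and 52.5, 44.8, 49.7 and 56.3 TPM in Idh2R172K, without overlap (1.38 ± 0.29, limma adjusted p = 0.0025). Esam, an adhesion protein of stem cells, was at 44, 39.8, 38.6 and 48 TPM and 112, 86.9, 82.4 and 117 TPM (1.19 ± 0.22, limma adjusted p = 0.0008). Mycn, a MYC family factor of stem cells, was at 68, 64.9, 53.1 and 95.6 TPM and 157, 139, 137 and 191 TPM, with the highest WT library, pool 4, still under the lowest mutant one (1.16 ± 0.22, limma adjusted p = 0.0011). Against these, Prdm16, a chromatin factor needed to maintain stem cells, was at 7.74, 8.64, 7.17 and 8.56 TPM and 1.44, 2.09, 1.35 and 1.66 TPM. All its mutant libraries were far lower (-1.78 ± 0.18, limma adjusted p = 8.7e-07). Gata3 fell from 10.6 ± 1.74 to 6.34 ± 1.22 TPM (-0.66 ± 0.18, limma adjusted p = 0.014). Of the genes used to mark long-term stem cells, Fgd5 rose from 6.29 ± 1.51 to 16.1 ± 5.78 TPM (1.20 ± 0.34, limma adjusted p = 0.02), a call that ended without WT replicate 2 or Idh2R172K replicate 4 (0.061 to 0.077). Procr, Hlf and Slamf1 were not called. Procr, the receptor EPCR, was at 26.1 ± 10.1 TPM in WT and 31.3 ± 9.74 TPM in the mutant (limma adjusted p = 0.61), Hlf at 72.6 ± 5.33 and 67.9 ± 9.41 TPM (adjusted p = 0.8), and Slamf1, the marker CD150, at 3.26 ± 0.673 and 2.24 ± 0.704 TPM (adjusted p = 0.18).

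The markers used in the sort were present in every library. Kit was at 335, 426, 375 and 427 TPM in WT and 541, 636, 562 and 622 TPM in Idh2R172K, and the mutant libraries lay above WT without a call (limma adjusted p = 0.22). Ly6a, which codes for Sca1, was at 185, 183, 155 and 149 TPM and 115, 144, 141 and 122 TPM (-0.36 ± 0.11, limma adjusted p = 0.031). The call for Ly6a ended without WT replicates 1 or 2 or Idh2R172K replicates 1 or 4 (0.09 to 0.099). Flt3, the receptor that marks multipotent progenitors primed for lymphoid fates, was at 219, 277, 226 and 346 TPM and 135, 169.5, 144 and 189.9 TPM, lower in every mutant library (-0.73 ± 0.19, limma adjusted p = 0.012). Cd34 was at 493 ± 34.5 and 582 ± 14 TPM, with every mutant library above every WT library and no call (limma adjusted p = 0.19). Cd48, a marker of progenitors past the stem cell stage, was at 629 ± 24.7 and 657 ± 34.5 TPM (adjusted p = 0.58). The spread was estimated over all 20 libraries, in which Tet2KO replicate 2 had Kit at 97.9 TPM and Cd34 at 323 TPM. Of 9 genes on the sort list tested, 3 were lower and none higher, 33.3% called against 15.8% of all genes. Without the 5 libraries that stood apart 3 were lower and 3 higher.

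Adhesion and migration genes held the largest share of rises among the pathway and programme lists. Of 45 tested, 18 were higher and 5 lower, 51.1% called against 15.8% of all genes (22 and 5 without the 5 libraries). Perp, Selp, Esam and Cd200r4 were among them. Itga9, an integrin chain, was at 1.39, 1.55, 1.47 and 1.46 TPM in WT and 7.25, 10.2, 5.93 and 18 TPM in Idh2R172K. The mutant libraries varied, with pool 4 highest, and all exceeded WT (2.09 ± 0.25, limma adjusted p = 9.3e-06). S1pr1, the receptor through which blood cells follow sphingosine phosphate out of tissues, was at 22, 24.3, 23.8 and 27.5 TPM and 59.7, 67, 60.5 and 60.7 TPM (1.31 ± 0.18, limma adjusted p = 4.4e-05). Tjp1, the tight junction protein ZO-1, was at 3.74, 3.51, 3.32 and 6.12 TPM and 13.4, 14.4, 11.9 and 21.3 TPM (1.65 ± 0.30, limma adjusted p = 0.00064). Itgb2, the beta chain of leukocyte integrins, went the other way, from 38.3 ± 4.21 to 21.5 ± 3.17 TPM (-0.81 ± 0.13, limma adjusted p = 0.00027).

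Receptors for cytokines and growth factors divided almost evenly, with 10 higher and 9 lower of 50 tested, 38% called against 15.8% of all genes. Leaving out the 5 libraries gave 17 and 11, and median-of-ratios scaling gave 14 lower. Pdgfrb, a platelet-derived growth factor receptor best known from stromal cells, was at 72.2, 107, 81.8 and 121 TPM in WT and 254, 306, 298 and 320.1 TPM in Idh2R172K. It was well expressed in WT already, and every mutant library was higher (1.64 ± 0.30, limma adjusted p = 0.00072). Of the 14 stroma and endothelium markers, 11 were under 1 TPM on average, among them Cdh5, Cxcl12 and Col1a1. The sum of the 14 was 56.2 to 99.4 TPM over the WT libraries and 56.7 to 69.4 TPM over the mutant ones. Csf2rb2, which codes for the mouse receptor chain of interleukin 3 and has a near copy in Csf2rb, was at 14.1, 8.81, 16.4 and 14.8 TPM and 28.5, 44, 38.7 and 43.2 TPM (1.46 ± 0.25, limma adjusted p = 0.0004). Among receptors that fell, Il18r1, for interleukin 18, was at 2.55, 2.95, 2.08 and 5.26 TPM in WT and 0.166, 0.153, 0.0681 and 0.209 TPM in the mutant (-1.82 ± 0.25, limma adjusted p = 4.5e-05). Ifngr2, a chain of the interferon gamma receptor, was at 34.7, 29.3, 37.4 and 43.9 TPM and 12, 19.5, 15.2 and 17.5 TPM (-1.14 ± 0.14, limma adjusted p = 9.6e-06). Il1rl1, the interleukin 33 receptor, fell from 3.97 ± 1.09 to 1.46 ± 0.29 TPM (limma adjusted p = 0.00043).

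**Figure D4:**
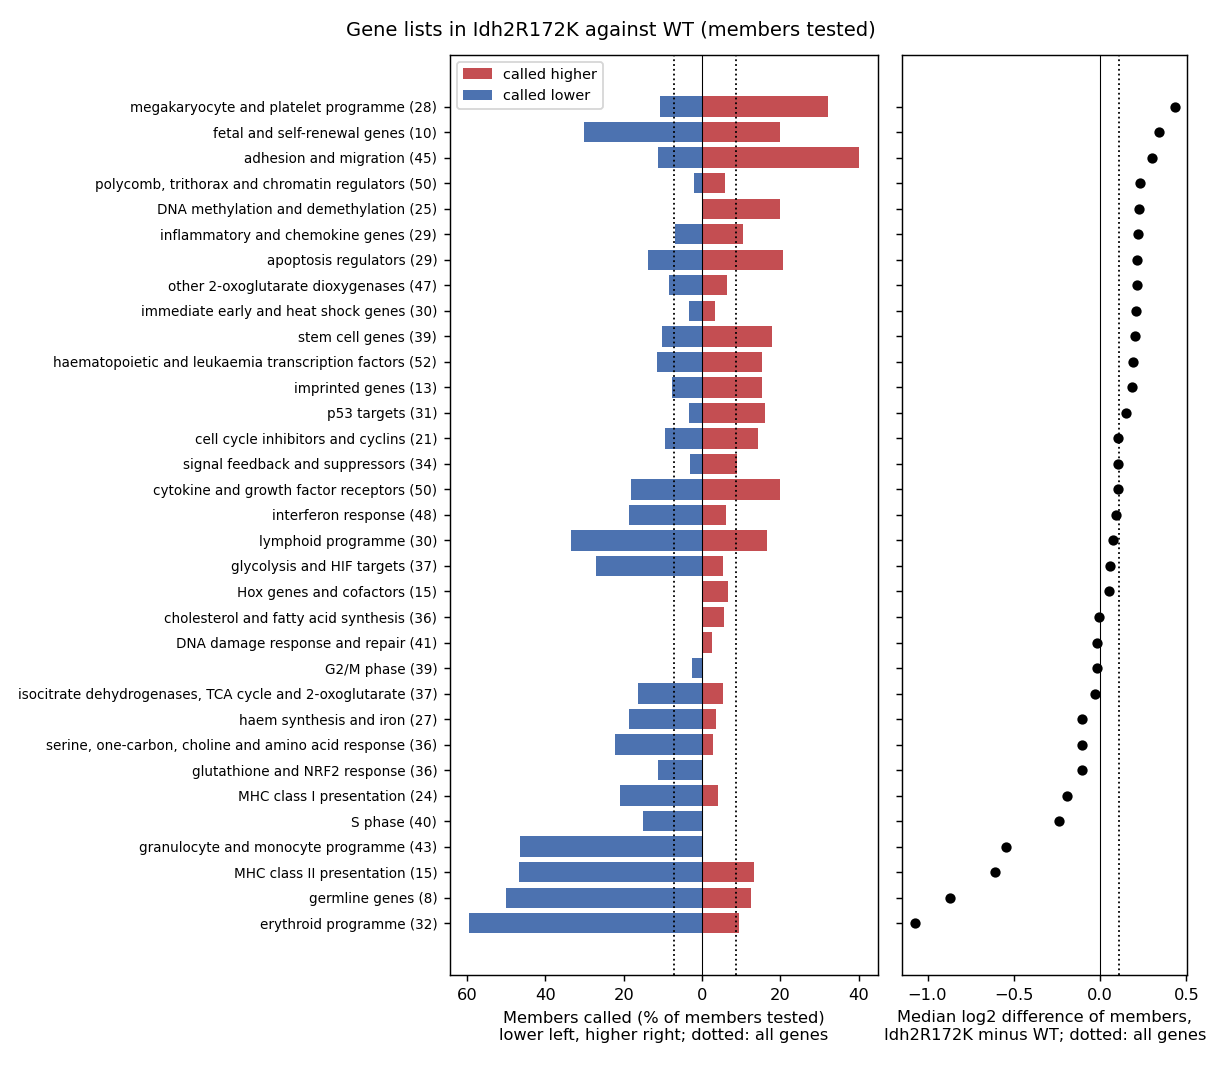
Left, share of the members tested of each gene list that were called higher (red, to the right) or lower (blue, to the left), in percent, with dotted lines at the shares over all genes, 8.6% and 7.21%. Right, median log2 difference of the members, dotted line at the 0.11 of all genes; the erythroid list is lowest at -1.07 and the megakaryocyte list highest at 0.43. Numbers in brackets are members tested.

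Genes of granulocytes and monocytes fell without exception among the calls, 20 of 43 tested lower and none higher, with a median of -0.55. The share called was 46.5%, against 15.8% of all genes. Some of the 20 averaged under 1 TPM in Idh2R172K and passed the limit of 1 TPM through WT. Without the 5 libraries 20 were lower and 2 higher. Ctsg, the granule protease cathepsin G, was at 997, 762, 1035 and 1065 TPM in WT and 161, 292, 228 and 237 TPM in Idh2R172K, low in every mutant library (-2.09 ± 0.20, limma adjusted p = 7.2e-07). Hk3, the hexokinase of myeloid cells, was at 145, 119, 154 and 206 TPM and 26, 34.4, 29.8 and 31.9 TPM (-2.30 ± 0.18, limma adjusted p = 3e-08). Fcer1g, the signalling chain of Fc receptors, was at 205, 191, 196 and 209 TPM and 82.4, 72.9, 66.7 and 50.4 TPM (-1.56 ± 0.15, limma adjusted p = 5.5e-07). Irf8, the transcription factor of monocytes and dendritic cells, was at 99, 82.6, 127 and 164 TPM and 35.4, 47.8, 59.5 and 44.8 TPM, without overlap (-1.29 ± 0.19, limma adjusted p = 0.0001). Elane, neutrophil elastase, fell from 1630.3 ± 375 to 581 ± 202 TPM (-1.52 ± 0.28, limma adjusted p = 0.00076). Mpo, myeloperoxidase, was at 3860.0, 2573, 4042 and 3956 TPM and 2243, 2755, 2599.8 and 2178 TPM. WT pool 2 was the lowest WT library and overlapped the mutant range, and Mpo was not called (limma adjusted p = 0.075). Among other transcription factors of the lineage, Cebpe was lower, at -0.74 ± 0.24 (limma adjusted p = 0.048), a call that ended without WT replicates 1 or 4 or Idh2R172K replicates 1, 2 or 3 (0.071 to 0.13). Spi1 and Cebpa were not called, with Spi1, which codes for PU.1, at 177 ± 20.6 and 195 ± 7.43 TPM (adjusted p = 0.2) and Cebpa at 20.4 ± 7.9 and 23.5 ± 12.1 TPM (adjusted p = 0.82). Of 9 tested markers of mature neutrophils none was called. The sum of the 14 listed was 40.7 to 110.9 TPM in WT and 34.5 to 98.1 TPM in the mutant.

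Genes of basophils, mast cells and eosinophils changed unevenly. Of 7 basophil and mast markers tested, 3 were lower and 1 higher, 57.1% called against 15.8% of all genes. Prss34, a basophil protease, was at 136, 143, 109 and 95.9 TPM in WT and 35.7, 12.2, 14.8 and 17.3 TPM in Idh2R172K (-2.64 ± 0.26, limma adjusted p = 8.4e-07). Ms4a2, the beta chain of the IgE receptor, was at 6.23, 6.37, 6.27 and 8.22 TPM and 0.699, 0.554, 0.408 and 0.894 TPM (-2.25 ± 0.18, limma adjusted p = 5.5e-08). Both were lower in every mutant library, and so was Fcer1a, the alpha chain (-1.91). Cpa3, the carboxypeptidase of mast cells and their progenitors, rose instead, from 87.4, 131, 70.7 and 135 TPM to 341, 251, 229 and 303 TPM, with no overlap (1.43 ± 0.21, limma adjusted p = 7.6e-05). Gata2, the factor that drives Cpa3 and mast cell genes, was at 167 ± 40.4 and 226 ± 47.6 TPM (adjusted p = 0.2). Of 8 eosinophil markers 4 were lower and 1, Siglecf, higher (0.97 ± 0.17), 62.5% called. Prg2, the major basic protein, was at 206, 44.7, 92.5 and 90.7 TPM and 11, 4.21, 7.34 and 14 TPM. WT pool 1 was highest, and even the lowest WT library exceeded the mutant ones (-3.34 ± 0.49, limma adjusted p = 9e-05).

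Lymphoid priming genes, which multipotent progenitors express before they commit, changed in both directions. Of 30 tested, 10 were lower and 5 higher, 50% called against 15.8% of all genes (10 and 6 without the 5 libraries). The list's median was 0.08, near the 0.11 of all genes, and 16 of the 30 lay above 0. Dntt, the polymerase that adds bases to antigen receptor joints, was at 705, 1032, 834 and 1092 TPM in WT and 196, 242, 232 and 257 TPM in Idh2R172K. All mutant libraries were far under WT (-1.96 ± 0.18, limma adjusted p = 3.3e-07). Lck, the kinase of T cell receptor signalling, was at 29.9, 56, 39.5 and 54.7 TPM and 7.44, 8.77, 9.32 and 11.9 TPM (-2.12 ± 0.24, limma adjusted p = 3.4e-06). Cd79b, the signalling chain of the B cell receptor, was at 82.6, 81.8, 82.1 and 95.5 TPM and 40.0, 22.3, 28.5 and 25.4 TPM (-1.56 ± 0.12, limma adjusted p = 4.1e-08). Notch1, the receptor that starts T cell fate, fell from 35.7 ± 6.59 to 18.4 ± 3.47 TPM (-0.92 ± 0.23, limma adjusted p = 0.0081), and Tcf7, one of its targets, from 7.24 ± 2.6 to 1.76 ± 0.403 TPM (-1.54 ± 0.31, limma adjusted p = 0.002). The recombinase genes went apart. Rag2 fell from 8.87 ± 2.13 to 3.89 ± 1.01 TPM (limma adjusted p = 0.0013), while Rag1 was at 0.604, 0.896, 0.928 and 1.41 TPM in WT and 2.61, 2.33, 2.36 and 2.41 TPM in the mutant, higher in every library (0.82 ± 0.20, limma adjusted p = 0.008). The factor Ikzf1 was at 116 ± 9.46 and 107 ± 12.1 TPM (adjusted p = 0.68), and Il7r, the interleukin 7 receptor, at 11.9 ± 3.25 and 14.7 ± 1.06 TPM (adjusted p = 0.37).

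Surrogate light chain genes of early B cells stood out from the other lymphoid genes. Igll1 was at 0.339, 2, 0.657 and 1.35 TPM in WT and 25.7, 3.49, 9.06 and 4.45 TPM in Idh2R172K (2.18 ± 0.53, limma adjusted p = 0.0078). Pool 1 of the mutant was far above the other 3, and all 4 exceeded WT. Vpreb1 showed the same order, at 2.2, 4.2, 1.95 and 4.03 TPM and 24, 4.87, 8.1 and 5.35 TPM (1.28 ± 0.37, limma adjusted p = 0.024). Its call ended without WT replicates 1 or 3 or Idh2R172K replicate 1 (0.069 to 0.079), and without mutant pool 1 its log2 difference was 0.82. The B cell markers Pax5, Ebf1 and Ms4a1 were each under 1 TPM on average and not tested, and the sum of the 11 B lineage markers was 98.0 to 115.4 TPM in WT and 41.9 to 124.7 TPM in the mutant. Immunoglobulin V segments varied widely between pools of 1 group. Of 166 tested, 8 were higher and 3 lower, 6.63% called, which is under the 15.8% of all genes. Igkv3-5, for example, picked after its values were seen, was at 0.427, 0.365, 0.587 and 19.6 TPM in WT and 46.7, 325, 156 and 164 TPM in the mutant (limma adjusted p = 0.0073).

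Of 15 genes of antigen presentation by MHC class II, 7 were lower and 2 higher, with a median of -0.61 (7 and 4 without the 5 libraries). The share called was 60%, against 15.8% of all genes. H2-Ab1, a chain of the class II molecule, was at 273, 212, 172.3 and 193 TPM in WT and 90.8, 92.5, 60.8 and 88 TPM in Idh2R172K (-1.34 ± 0.19, limma adjusted p = 6.4e-05). H2-Aa, its partner, was at 99.3, 74.4, 47.7 and 60.9 TPM and 22.4, 20.2, 11.4 and 21.1 TPM (-1.85 ± 0.27, limma adjusted p = 9.6e-05). In both the WT pools spread widely, with pool 1 highest, and the groups did not overlap. Ciita, the factor that switches class II genes on, fell from 2.94 ± 0.613 to 1.1 ± 0.509 TPM (-0.93 ± 0.22, limma adjusted p = 0.0069), and Ctss, the protease that trims the invariant chain, from 111 ± 9.81 to 43.4 ± 4.66 TPM (-1.33 ± 0.09, limma adjusted p = 1.3e-08). The 2 genes higher code for the chains of H2-O, which holds peptide loading back. H2-Oa was at 32.1, 36.1, 27.2 and 32.1 TPM and 47.8, 48.2, 49.4 and 49.7 TPM (0.60 ± 0.10, limma adjusted p = 0.00023), and H2-Ob rose by 0.63 ± 0.18 (limma adjusted p = 0.024), a call that ended without WT replicates 1 or 3 or Idh2R172K replicate 4 (0.069 to 0.084).

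Some markers of mature cells that a sort can carry along were lower as well. Of 11 macrophage markers tested 2, Cd68 and Cd163, were lower and none higher, 18.2% called, close to the 15.8% of all genes. All 11 lay under 0. The sum of the 14 on that list was 194.1 to 225.8 TPM in WT and 117.5 to 151.1 TPM in Idh2R172K, without overlap, and the complement gene C1qa of tissue macrophages was at 16.4 ± 2 TPM and 9.39 ± 1.94 TPM (limma adjusted p = 0.08). Of 10 dendritic markers tested 2 were lower and 1 higher, 30% called. The sum of the 12 listed was 479.2 to 634.9 TPM in WT and 381.8 to 467.8 TPM in Idh2R172K. Its most abundant member was Flt3, given above with the sort markers, at means of 267 and 159.5 TPM. Of 5 T and NK markers tested 3 were lower, 60% called. The sum of the 12 listed was 799.8 to 1021 TPM in WT and 728.6 to 816.6 TPM in Idh2R172K. Most of it was Nkg7, at means of 825 and 762 TPM, which was not called (limma adjusted p = 0.48). The defining T cell genes Cd3d, Cd3e and Cd3g were under 1 TPM in both groups. Plasma cell markers gave 2 higher and 1 lower of 9 tested, 33.3% called. The sum of the 10 listed was 5047 to 7356 TPM in WT and 5903 to 11846 TPM in Idh2R172K, mostly the immunoglobulin chain Igkc. The part of such cells in the falls of myeloid, class II and eosinophil genes was not tested.

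A few genes of DNA methylation and demethylation rose slightly. Of 25 tested 5 were higher and none lower, 20% called against 15.8% of all genes, with a median of 0.23 against 0.11 over all genes. Without the 5 libraries 9 were higher and 3 lower, and 2 were lower with median-of-ratios scaling. Tet2 was at 7.22, 6.67, 6.89 and 9.23 TPM in WT and 12, 14.1, 11 and 14.3 TPM in Idh2R172K (0.71 ± 0.20, limma adjusted p = 0.019). Tet1 was at 14.1, 14.3, 11.7 and 13.4 TPM and 20.3, 21.3, 18.2 and 19 TPM (0.53 ± 0.15, limma adjusted p = 0.024). Tet3 was at 20.9, 19.2, 20.4 and 22.5 TPM and 25.9, 27.9, 24.4 and 30.5 TPM (0.37 ± 0.12, limma adjusted p = 0.038). In none of the 3 did the groups overlap, but each call ended when any 1 of several libraries was left out. That of Tet2 ended without WT replicates 2 or 3 or Idh2R172K replicates 2 or 4 (0.053 to 0.057), that of Tet1 without WT replicate 3 or Idh2R172K replicates 1 or 2 (0.053 to 0.077), and that of Tet3 without WT replicates 1, 2 or 3 or Idh2R172K replicates 1, 2 or 4 (0.053 to 0.12). Dnmt3a, the enzyme that sets new methyl marks and is often mutated in leukaemia, was at 20.2, 19, 21.5 and 22.3 TPM and 28.8, 27.4, 27.4 and 34.7 TPM (0.49 ± 0.14, limma adjusted p = 0.019), a call that ended without WT replicate 2 or Idh2R172K replicate 4 (0.06 to 0.073). Cxxc5, which binds CG pairs, was the fifth, at 0.44 ± 0.14 (limma adjusted p = 0.039), with overlapping groups and a call that ended without WT replicates 1, 2, 3 or 4 or Idh2R172K replicates 2 or 4 (0.052 to 0.15) and with median-of-ratios scaling. Dnmt1, the maintenance enzyme, was at 306 ± 65.8 TPM in WT and 282 ± 35.4 TPM in the mutant (adjusted p = 0.83), and Dnmt3b at 50.3 ± 9.59 and 71 ± 31.8 TPM (adjusted p = 0.34).

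Other dioxygenases that use 2-oxoglutarate gave 3 higher and 4 lower of 47 tested, 14.9%, close to the 15.8% of all genes (14 and 5 without the 5 libraries). Egln3, the prolyl hydroxylase PHD3 that marks HIF for breakdown, was at 46.4, 43.2, 41.4 and 46.7 TPM in WT and 27.3, 28.8, 32.1 and 22.6 TPM in Idh2R172K, lower in every mutant library (-0.67 ± 0.09, limma adjusted p = 3.5e-05). Kdm6b, which removes methyl groups from lysine 27 of histone H3, was at 2.68, 3.1, 2.99 and 3.51 TPM and 5.51, 4.78, 4.62 and 5.13 TPM (0.56 ± 0.15, limma adjusted p = 0.015). Jmjd1c, a demethylase-like protein, was at 12.8, 14.3, 14 and 17.9 TPM and 20.9, 23.4, 19.7 and 26.2 TPM (0.59 ± 0.15, limma adjusted p = 0.013). For both the mutant libraries lay above WT. Under median-of-ratios or quantile scaling Kdm6b was no longer called.

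Around Idh2 in metabolism, 2 of 37 genes of the TCA cycle and 2-oxoglutarate were higher and 6 lower (4 and 8 without the 5 libraries). That was 21.6% called against 15.8% of all genes. Pcx, the pyruvate carboxylase that feeds oxaloacetate to the cycle, was at 8.62, 7.55, 8.98 and 5.57 TPM in WT and 3.02, 1.86, 1.8 and 2.04 TPM in Idh2R172K, without overlap (-1.45 ± 0.28, limma adjusted p = 0.0013). Gpt2, the mitochondrial transaminase that makes 2-oxoglutarate from glutamate, was at 4.56, 3.43, 4.61 and 4.42 TPM and 1.77, 1.51, 2.46 and 1.84 TPM (-0.86 ± 0.19, limma adjusted p = 0.0039). Suclg1, a subunit of succinyl-CoA ligase, fell from 114 ± 2.94 to 96 ± 2.66 TPM (-0.25 ± 0.06, limma adjusted p = 0.011). The others lower were Mdh2, Got2 and Idh3a, at -0.20, -0.35 and -0.31. Their calls ended without WT replicates 2 or 3 or Idh2R172K replicates 2 or 4 (0.068 to 0.12), without any 1 of the 8 libraries (0.051 to 0.14) and without WT replicates 1, 2, 3 or 4 or Idh2R172K replicates 1, 2 or 4 (0.064 to 0.15), in that order. The other gene higher besides Idh2 was Slc25a11, the carrier that swaps 2-oxoglutarate for malate across the inner membrane, at 0.29 ± 0.08 (limma adjusted p = 0.025). Its call ended without WT replicates 1 or 3 or Idh2R172K replicates 1 or 3 (0.056 to 0.08) and with median-of-ratios scaling. D2hgdh, which clears the D form of 2-hydroxyglutarate, was at 23.7 ± 6.5 TPM and 31.1 ± 3.5 TPM (limma adjusted p = 0.22).

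On a joint list of glycolysis genes and HIF targets the calls were mostly lower, 10 of 37 tested against 2 higher. The share called was 32.4%, against 15.8% of all genes. The list as a whole was not lower, with a median of 0.06 and 20 of the 37 above 0. The 10 include Fbp1 of gluconeogenesis and Egln3. Without the 5 libraries it was 13 lower and 12 higher. Ldhb, the lactate dehydrogenase chain that favours pyruvate, was at 99.3, 79.6, 78.5 and 84.4 TPM in WT and 39.8, 33.1, 34.3 and 29.1 TPM in Idh2R172K (-1.30 ± 0.13, limma adjusted p = 1.1e-06). Tpi1, triose phosphate isomerase, fell from 628 ± 16.1 to 499 ± 29.7 TPM (-0.33 ± 0.07, limma adjusted p = 0.0021), and Gapdh from 647 ± 34.5 to 499.9 ± 46.6 TPM (-0.37 ± 0.08, limma adjusted p = 0.0028). These are small next to the falls of Fbp1 and Hk3. Hk2, an inducible hexokinase, rose from 21.2 ± 1.79 to 29.8 ± 3.78 TPM (0.47 ± 0.11, limma adjusted p = 0.0056), a call that ended with quantile scaling.

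Serine, one-carbon and amino acid genes gave 8 lower and 1 higher of 36 tested, 25% called against 15.8% of all genes (9 and 5 without the 5 libraries). Besides Chdh, Asns, the asparagine synthetase induced when amino acids are short, was at 46.6, 44.2, 55.6 and 35.6 TPM in WT and 13.6, 11.1, 14.7 and 8.82 TPM in Idh2R172K, without overlap (-1.84 ± 0.23, limma adjusted p = 1.1e-05). Pycr1, of proline synthesis, fell from 10.3 ± 1.5 to 6.43 ± 0.724 TPM (-0.60 ± 0.14, limma adjusted p = 0.006). Phgdh, the first enzyme of serine synthesis, was lower by less, at -0.24 ± 0.08 (limma adjusted p = 0.035), and its call ended without WT replicates 2, 3 or 4 or Idh2R172K replicates 1, 2 or 4 (0.071 to 0.1). Of 36 glutathione genes 4 were lower and none higher, 11.1% called against 15.8% of all genes (12 and 2 without the 5 libraries, and 7 lower with median-of-ratios scaling). Mgst2, a microsomal glutathione transferase, was at 8.91, 6.78, 10.3 and 8.42 TPM and 2.07, 2.13, 1.35 and 2.35 TPM (-1.69 ± 0.19, limma adjusted p = 3.3e-06), and Taldo1, the transaldolase of the pentose phosphate path, fell from 429 ± 21 to 337 ± 9.88 TPM (-0.35 ± 0.06, limma adjusted p = 0.00039).

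Perp led the rises among p53 targets, but few others of the list were called. Of 31 tested 5 were higher and 1 lower, 19.4% against 15.8% of all genes, with a median of 0.15 against 0.11 over all genes (13 and 1 without the 5 libraries). Pmaip1, the death gene NOXA, was at 2.83, 2.4, 4.01 and 4.49 TPM in WT and 7.79, 11, 12.1 and 10.7 TPM in Idh2R172K (1.37 ± 0.22, limma adjusted p = 0.00019). Phlda3, an AKT inhibitor, was at 11.7, 10.1, 15.1 and 14.5 TPM and 19.9, 23.7, 24.7 and 25.2 TPM (0.82 ± 0.16, limma adjusted p = 0.0013). Both were above WT in every mutant library. Bbc3, the death gene PUMA, rose by 0.90 ± 0.26 (limma adjusted p = 0.022), a call that ended without WT replicate 2 or Idh2R172K replicates 2 or 4 (0.067 to 0.09). Tnfrsf10b, a TRAIL death receptor, was the 1 lower, from 3.01 ± 0.379 to 0.814 ± 0.254 TPM (-1.15 ± 0.14, limma adjusted p = 1.1e-05). The classical targets Cdkn1a and Mdm2 were not called. Cdkn1a was at 36.2 ± 4.69 TPM and 44.1 ± 6.99 TPM (limma adjusted p = 0.36), and Mdm2 at 45.9 ± 16.4 and 56.9 ± 13.2 TPM (adjusted p = 0.41).

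Apoptosis regulators gave 6 higher and 4 lower of 29 tested, 34.5% called against 15.8% of all genes (12 and 7 without the 5 libraries). Bcl2l1, which codes for the survival protein BCL-XL, was at 23.6, 23.7, 23.6 and 25.4 TPM in WT and 58.5, 53.5, 53.9 and 52.7 TPM in Idh2R172K, 2 tight and separate groups (1.15 ± 0.14, limma adjusted p = 7.7e-06). Bmf, a death protein of the BH3 class, rose from 1.3 ± 0.208 to 4.91 ± 1.05 TPM (1.35 ± 0.21, limma adjusted p = 0.00012). Bcl2, the other main survival gene, was at 58.7, 54.8, 61.7 and 53.6 TPM and 33.5, 49.5, 40.3 and 37.3 TPM, lower in every mutant library (-0.51 ± 0.10, limma adjusted p = 0.0021). Casp1, the protease of inflammasomes, was at 83, 78.6, 95.5 and 124 TPM and 17.3, 15, 12.9 and 16.9 TPM, far apart (-2.53 ± 0.14, limma adjusted p = 7.2e-10).

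Few cell cycle genes were called. Of 40 S phase genes 6 were lower and none higher, 15% called against 15.8% of all genes, with a median of -0.24. Without the 5 libraries 10 were lower, and with median-of-ratios scaling 20. Rrm2, the subunit of ribonucleotide reductase, was at 209.6, 201, 223 and 247 TPM in WT and 124, 112, 125 and 122 TPM in Idh2R172K (-0.86 ± 0.12, limma adjusted p = 3.6e-05). Of 39 G2/M genes 1 was lower, 2.56% called. Mki67, the proliferation marker, was at 75.3 ± 8.22 TPM and 77.6 ± 8.09 TPM (limma adjusted p = 0.88). Ccnd1, cyclin D1, was at 7.52, 10.1, 8.02 and 8.39 TPM and 0.703, 0.813, 1 and 0.896 TPM, reduced in every mutant library (-2.35 ± 0.20, limma adjusted p = 1.6e-07). Cdk6, the kinase that partners D cyclins in progenitors, was at 145, 144, 154 and 119 TPM and 192, 208, 197 and 170.2 TPM (0.45 ± 0.09, limma adjusted p = 0.0021), a call that ended under median-of-ratios scaling. Cdkn2d, an inhibitor of CDK4 and CDK6, rose from 99.6 ± 5.06 to 142 ± 5.36 TPM (0.51 ± 0.07, limma adjusted p = 5.1e-05). Of 41 DNA damage genes 1, Atrip, was higher, 2.44% called, against 5 lower with median-of-ratios scaling.

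Signalling feedback genes gave 3 higher and 1 lower of 34, 11.8% called against 15.8% of all genes (8 and 3 without the 5 libraries). Socs3, an inhibitor of cytokine signalling through STAT3, was at 22.1, 18.8, 21.9 and 28.6 TPM in WT and 61.8, 101, 74.1 and 114 TPM in Idh2R172K, above WT in every library (1.87 ± 0.27, limma adjusted p = 7.4e-05). Dusp6, a phosphatase that ERK signalling induces, was at 54.3, 86.8, 71.8 and 105 TPM and 22.5, 24, 34.7 and 26.4 TPM, lower in every mutant library (-1.51 ± 0.26, limma adjusted p = 0.0004). Of 48 interferon response genes 9 were lower and 3 higher, 25% called against 15.8% of all genes (10 and 12 without the 5 libraries). Ifi47, a GTPase induced by interferon gamma, was at 259, 263, 253 and 223 TPM and 129, 118, 139 and 106 TPM (-1.02 ± 0.12, limma adjusted p = 4.7e-06). Zbp1, a sensor of unusual nucleic acids, fell from 6.3 ± 1.28 to 1.64 ± 0.352 TPM (-1.46 ± 0.16, limma adjusted p = 2.6e-06). Irf7, a factor that amplifies interferon responses, was not called, at 32.6 ± 10.9 and 28.5 ± 4.73 TPM (limma adjusted p = 0.71). Ccl3, a chemokine of myeloid cells, was at 21.7, 37.5, 33.9 and 142 TPM in WT and 1.52, 0.857, 2.03 and 4.49 TPM in the mutant. WT pool 4 was far above the other 3 WT libraries, and all WT libraries exceeded all mutant ones (-3.94 ± 0.57, limma adjusted p = 7.4e-05).

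A few genes of fetal or germline tissues changed strongly. Of 10 fetal and self-renewal genes tested 2 were higher and 3 lower, 50% called against 15.8% of all genes. Hmga2, a chromatin protein of fetal stem cells, was at 2.83, 3.07, 3.5 and 3.69 TPM in WT and 10.0, 11.3, 14.8 and 10.3 TPM in Idh2R172K (1.55 ± 0.21, limma adjusted p = 3.1e-05). Igf2bp3, a fetal RNA-binding protein, was at 0.263, 0.465, 0.448 and 0.421 TPM in WT and 2.77, 1.85, 4.61 and 1.33 TPM in the mutant (1.30 ± 0.19, limma adjusted p = 0.0001). Both were higher in every mutant library. Afp, the fetal serum protein, fell from 5.22, 4.63, 3.95 and 3.91 TPM to 0.368, 0.268, 0.243 and 0.299 TPM (-2.06 ± 0.13, limma adjusted p = 3.5e-09). Among 13 imprinted genes 2 were higher and 1 lower, 23.1% called. Dlk1, a paternally expressed surface protein of fetal liver, was at 0.763, 0.875, 0.886 and 0.598 TPM and 4.91, 9.42, 6.18 and 5.58 TPM (2.05 ± 0.18, limma adjusted p = 2.2e-07). Sgce, also paternally expressed, rose from 14.8 ± 2.01 to 35.6 ± 3.07 TPM (1.22 ± 0.13, limma adjusted p = 3.4e-06), while the maternally expressed receptor Igf2r fell from 8.79 ± 1.99 to 3.38 ± 0.341 TPM (-1.14 ± 0.24, limma adjusted p = 0.0025). Of 8 germline genes tested of 34 listed, 4 were lower and 1, Spats2, higher, 62.5% called. Spats2, Igf2bp3 and Dlk1 averaged under 1 TPM in WT, and Psma8, Dmc1 and Afp did so in the mutant, so these genes passed the limit of 1 TPM through the other group. The counts of fetal, imprinted and germline genes are therefore descriptions only. Psma8, the proteasome subunit of meiotic cells, was at 15.9, 16.5, 13.6 and 14.2 TPM and 0.172, 0, 0.194 and 1.24 TPM (-3.59 ± 0.24, limma adjusted p = 6.9e-09). Ddx4, the germ cell helicase VASA, fell from 10.7 ± 1.88 to 1.99 ± 0.833 TPM (limma adjusted p = 5.1e-06), Gdf3, a TGF-beta family ligand of pluripotent cells, from 26.8 ± 11.4 to 1.57 ± 1.11 TPM, and Dmc1, the meiotic recombinase, from 2.24 ± 0.507 to 0.24 ± 0.0846 TPM. All were expressed in WT LSK cells.

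Noncoding genes went up more often than down. Over 6 GENCODE classes (antisense, lincRNA, processed transcript, sense intronic, bidirectional promoter and TEC, loci to be experimentally tested) 186 of 1103 were called higher and 42 lower, so 81.6% of the calls were rises. Among 11412 protein-coding genes 935 were higher and 928 lower, 50.2% rises. Median-of-ratios scaling gave 76.2% for the noncoding and 42.2% for the coding genes, and leaving out the 5 libraries 84.4% and 67.3%. The TEC loci alone took 0.064 to 0.090% of TPM in the WT libraries and 0.096 to 0.128% in the mutant ones, without overlap. The 6 classes together took 1.55 to 1.90% and 1.77 to 1.97%, which overlap. The labels give no strand setting for the counting, so the reads of an antisense gene and of its partner cannot be told apart. On chromosome 7 as a whole, which carries Idh2, 96 genes were higher and 83 lower of 1002, 17.9%.

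The mutant was also compared directly with 2 other groups in the same fit. Against Idh2R140Q, 1492 genes differed, 10.6% of those tested, 574 higher and 918 lower in Idh2R172K. Against Tet2KO 3760 differed, 26.8%, with 2160 higher and 1600 lower. These comparisons share the Idh2R172K libraries with the comparison to WT, and Tet2KO has no Cre in its label. Tet2 itself was at 11.2, 5.74, 12.1 and 10.6 TPM in the libraries labelled Tet2-/- and at 7.22, 6.67, 6.89 and 9.23 TPM in WT, so 3 of the 4 lay above every WT library and 1 below. A level summed over the whole gene does not show whether the deleted part is missing, the labels do not say which part that is, and Tet2KO here means the libraries so labelled. Perp was at 6.39, 6.99, 5.65 and 5.63 TPM in Idh2R140Q and 5.88, 2.52, 6.06 and 5.98 TPM in Tet2KO, both under every Idh2R172K library (limma adjusted p = 7.2e-11 and 3.3e-11). Padi4 was at 29.9, 43.3, 36.8 and 42.9 TPM in Idh2R140Q and 36.9, 22.3, 45.9 and 37.2 TPM in Tet2KO, all above Idh2R172K (adjusted p = 3.7e-11 and 3.3e-11). Gata1 was at 46.7 ± 5.91 TPM in Idh2R140Q and 29.5 ± 3.8 TPM in Tet2KO. The level in Tet2KO lay between WT and Idh2R172K, and both groups differed from Idh2R172K (adjusted p = 9.5e-10 and 6.6e-08). Klf1 showed the same order, at 52.2 ± 4.66 TPM and 28.3 ± 2.39 TPM (adjusted p = 4.1e-11 and 7.3e-09), and so did Chdh, at 28.1 ± 8.55 TPM and 9.42 ± 3.85 TPM (adjusted p = 4e-08 and 1.1e-05). Dntt was at 1041 ± 170.3 TPM and 884 ± 121 TPM, above Idh2R172K in both (adjusted p = 1.2e-07 and 4.6e-07).

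**Figure D5:**
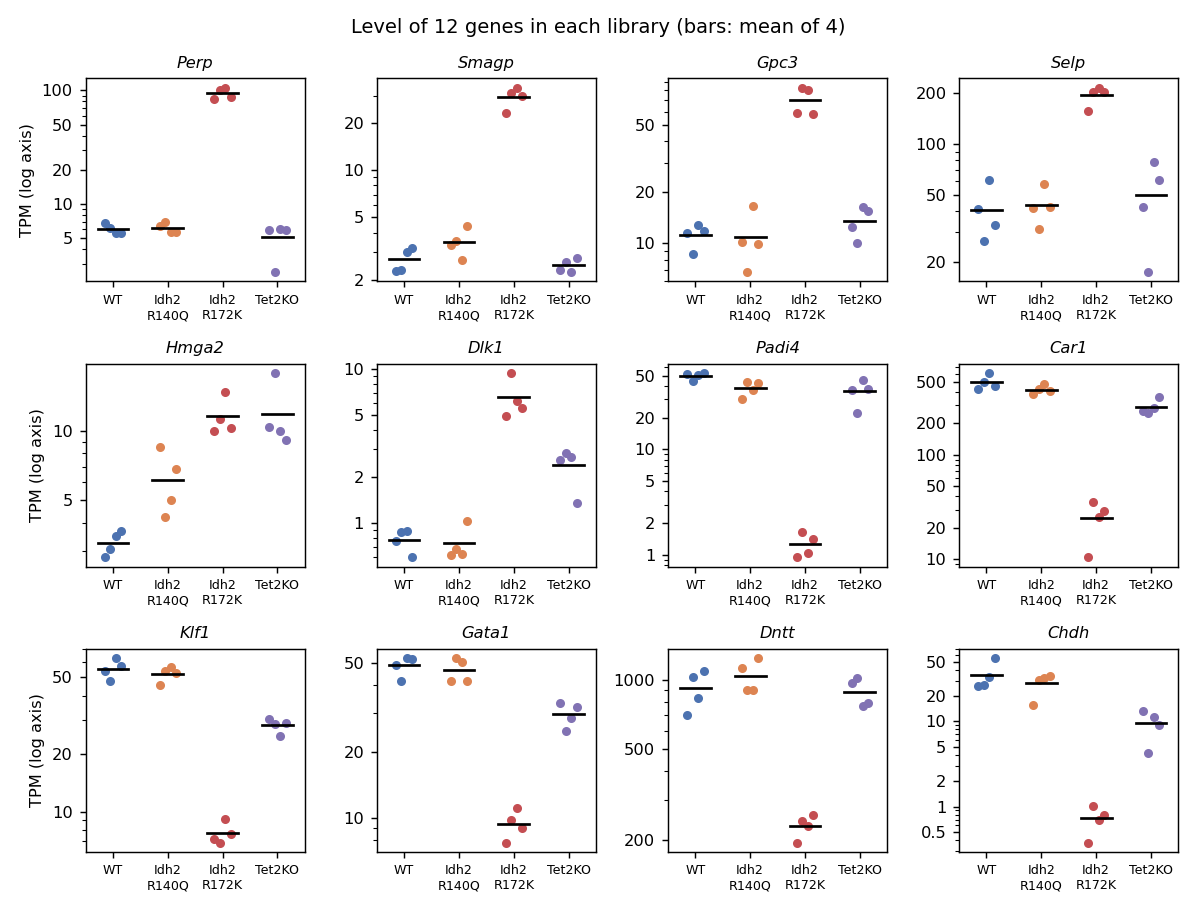
TPM (log axis, a separate range in each panel) of 12 genes in each library of WT, Idh2R140Q, Idh2R172K and Tet2KO, with the mean of the 4 libraries as a bar. Perp, Smagp, Gpc3, Selp and Dlk1 are highest in Idh2R172K, and Padi4, Car1, Klf1, Gata1, Dntt and Chdh are lowest there. Hmga2 lies above every WT library in all 3 mutant groups, and is higher in Idh2R172K and Tet2KO than in Idh2R140Q.

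Some genes that changed in Idh2R172K lay at a like level in Tet2KO. Hmga2 was at 10.4, 17.9, 10.0 and 9.17 TPM in Tet2KO, a log2 difference from Idh2R172K of -0.00 ± 0.21 (limma adjusted p = 1). In Idh2R140Q it was at 8.52, 4.24, 5 and 6.83 TPM, under Idh2R172K (0.84 ± 0.21, limma adjusted p = 0.012) and above every WT library. Vwf was at 3.35 ± 1.44 TPM in Tet2KO (-0.13 ± 0.28, adjusted p = 0.75) and Il1rl1 at 1.78 ± 0.568 TPM (-0.16 ± 0.17, adjusted p = 0.52). Isg20, an RNA exonuclease gene 1174.5 kb from Idh2, rose from 30.0 ± 4.6 TPM in WT to 47.9 ± 5.61 TPM in Idh2R172K (0.66 ± 0.15, limma adjusted p = 0.005). In Tet2KO Isg20 was at 43.1 ± 3.74 TPM (0.15 ± 0.15, adjusted p = 0.49). A difference that missed the threshold does not show that the levels are equal. Ly6a, lower than WT in Idh2R172K, lay on the other side of WT in Tet2KO. It was at 273, 350.2, 271 and 272 TPM in Tet2KO, above every Idh2R172K library (-1.15 ± 0.11, limma adjusted p = 6.5e-07).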

How the data were processed

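The deposited table gave TPM per gene for 20 libraries; per the submitters' processing notes the authors used Trim Galore, STAR and featureCounts with mm10, and versions, strand setting and TPM formula are not given in the sources used here. Depth was rebuilt from the steps between low TPM values: about 37000000 to 43100000 reads in the 8 libraries, with 90.0 to 91.2% of low values whole within 0.1 reads. Columns of Idh2R140Q carried an Idh1 prefix beside the 140Q mutation and were assigned by the mutation. Names came from GENCODE M21 (45229 of 46078 IDs; 849 had none) and promoters from RefSeq, GRCm38.p6.

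Genes averaging 1 TPM or more in the 8 libraries were fitted as log2(TPM + 1) with limma 3.58.1 in R 4.3.3, in one model of 5 groups with a variance trend, and p-values (two-sided) were Benjamini-Hochberg adjusted over the 14028 genes. A call is an adjusted p under 0.05. Tables and plots used Python 3.11.15 with pandas 2.3.3, numpy 2.4.6 and matplotlib 3.10.9, and the fit was checked on simulated data. Alternatives were another pseudocount, filter, scaling, weighting or covariate, rebuilt counts with limma-voom, a replicate block and leaving out libraries; a factor for the number 4 libraries was chosen after seeing the data. The labels do not say that a pool number marks shared mice or days, so the fit has no block. Deviations of same-numbered pools correlated at 0.07, -0.02, 0.14 and 0.40. The last, of the number 4 pools, was the highest of all pairings of WT and Idh2R172K pools. Xist and Ddx3y matched by pool number, and sex was in no model. With the block 3177 genes were called, against 2217 without.

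The genes and lists were chosen with earlier results of these data known. Named genes were Idh1, Idh2, Tet2 and 14 sort and lineage genes, the 15 largest rises and falls without overlap (no receptor segments, small RNAs or unnamed models), up to 5 called members of each list by p (3 and the most abundant for markers), called genes within 5000 kb of Idh2, and the 5 most abundant called genes each way. Outside that rule, and chosen after their values were seen, were Aqp1, Bcl2, C1qa, Car2, Cd59a, Cdkn1a, Cebpa, Cebpe, Ciita, Cldn13, Cnrip1, Cpa3, D2hgdh, Dnmt1, Dnmt3b, Elane, Ermap, Fgd5, Gapdh, Gata3, Gfi1b, Got2, H2-Oa, H2-Ob, Hk2, Idh3a, Igkv3-5, Ikzf1, Il1rl1, Il7r, Irf7, Itgb2, Mdh2, Mdm2, Notch1, Pdgfrb, Phgdh, Rag1, Rag2, Rhag, Rhd, Samd14, Spi1, Tal1, Tcf7, Tjp1, Urod, Vpreb1, Vwf and Zfpm1.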

Additional observations from a re-analysis of the deposited data

Results flagged for a closer look

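In each group of 4 libraries, one that lay far from the other 3 for their whole range was marked, which chance does in about 1 in 20 groups. Of 364 groups (182 genes in WT and Idh2R172K) 28 were marked, 7.69%, and 17 of the marked libraries were number 4 pools.

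In WT, pool 4 was highest for Ccl3 (141.9 TPM against 21.7 to 37.5 in the others), Ly9 (51.8 against 23.4 to 26.3), Itga2b (133 against 90.9 to 96.9), Cd79b (95.5), Bcl2l1 (25.4), Ms4a2 (8.22), Tjp1 (6.12), Irf7 (48.9 against 26.6 to 28.1), Mdm2 (70.5 against 36.3 to 39.4) and the segment Igkv3-5 (19.6 against 0.365 to 0.587). It was lowest for Mif (1435 TPM). WT pool 2 was highest for Car2 (1286 TPM) and lowest for Gpt2 (3.43), Mpo (2573 against 3860.0 to 4042) and Tal1 (15.3). WT pool 3 was highest for Cxxc5 (125 TPM).

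In Idh2R172K, pool 4 was lowest for Cdkn2d (134 TPM), Fth1 (2219) and Mif (878) and highest for Procr (45.8 against 24.9 to 28.3), Zfpm1 (16.8 against 8.05 to 9.24) and Psma8 (1.24 against at most 0.194). Pool 3 was lowest for Fbp1 (1.25 TPM) and H2-Ab1 (60.8 against 88.0 to 92.5). Pool 2 was highest for S1pr1 (67.0 TPM). Pool 1 was highest for Vpreb1 (24 against 4.87 to 8.10) and lowest for Notch1 (13.2 against 19.4 to 20.6) and Pycr1 (5.35).

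The mutant differed from the other groups by direct tests, in 1492 genes from Idh2R140Q and 3760 from Tet2KO.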

How the results depend on the processing

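Main counts were 2217 genes called, 1206 higher and 1011 lower. A mean of at least 5 TPM gave 1372, 719 and 653. Library weights gave 4608, 3021 and 1587, a Gm23935 covariate 4213, 2428 and 1785, and leaving out the 5 libraries that stood apart 4663 called with 3201 higher. Median-of-ratios scaling gave 1526 lower. The replicate block gave 3177 called, of which 1845 were higher, and a factor for the number 4 libraries 1836 higher. Leaving out 1 library gave 778 to 1225 higher. Against Idh2R140Q, 1492 genes differed, 869 with a mean of at least 5 TPM and 2902 without the 5 libraries. The causes were not tested. Of the 157 named genes called, 134 kept the call in every setting and 137 in all 8 omissions of 1 library, and none of the 182 reversed. In list counts, 447 values moved by over 1.5 times and 1575 did not. Depth limits genes near 1 TPM most.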
